A study of Mus musculus with 4 samples.

Results

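The Igf2-H19 and Kcnq1 domains are neighbouring clusters of imprinted genes near the distal end of mouse chromosome 7. They were followed through 7 of 37310 annotated genes: H19, Igf2 and Ins2 of the first domain, and Ascl2, Kcnq1, Cdkn1c and Phlda2 of the second. The region was made of every 40 kb bin from 500 kb before the first gene body to 500 kb after the last, which gave 49 of 66382 bins. It spans chr7:149240001-151200000 in the mm9 build. The region holds 66 annotated genes, 47 of them protein coding.

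Hi-C, in which crosslinked chromatin is cut, ligated and sequenced so that each read pair reports a contact of 2 genomic sites, was performed in male mouse embryonic stem cells (mESCs) of 2 groups. The WT cells were of the N3 line and were grown in 2i media. The cells labelled Firre KO are described as carrying a deletion of Firre, a long non-coding RNA locus of the X chromosome, and were co-cultured with irradiated feeder fibroblasts in 2i media, from which the feeders were depleted before use. Genotype and culture therefore differed together and cannot be told apart, and the sources used here do not say from which line the Firre KO cells came. Each group had 2 libraries, technical duplicates per the methods, pooled in 1 matrix. No difference below has a replicate check, no significance test was run, and intervals cover counting error only. Maternal and paternal copies were not separated, so every value is a mix of both.

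Both matrices were first set against their labels. The matrix of the second group is named the KO-labelled matrix below. Contacts on the X chromosome of the bin chrX:47920001-47960000, which lies within Firre, came to 1550 read pairs for WT and to 1144 for the KO-labelled matrix. With contacts to other chromosomes included, the bin had 1782 and 2011 read pairs, 3.41 and 3.35 times the median of the X chromosome bins of each matrix. The other 2 bins that overlap Firre had 1025 and 1391 read pairs in WT and 1035 and 1481 in the KO-labelled matrix. The loss of reads that a deletion in all cells would give was thus not seen, and for this reason the group is called by its label wherever a direction is given. The depth was 65611035 read pairs in WT, 16.1% of them between chromosomes, and 46635652 in the KO-labelled matrix, 35.6% of them between chromosomes. The region itself held 31354 and 17022 read pairs over its 1176 pairs of different bins, and all 49 bins were kept in both matrices.

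In imprinted genes the maternal and paternal copies are used unequally. Upstream of H19, an imprinting control region binds the zinc finger protein CTCF on the unmethylated maternal copy, which separates Igf2 from enhancers that lie beyond H19. In the Kcnq1 domain a second control region, within the Kcnq1 gene, starts the antisense RNA Kcnq1ot1 on the paternal copy and keeps the protein-coding genes around it silent there. Kcnq1ot1 was the only gene of a list of 22 neighbours that the annotation used here does not name in the region.

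The CTCF repeat of the H19 control region was searched in the mm9 sequence of both strands as CCGCG, any base, GG, any base, GGCAG. These sequences are shown because they mark the best known CTCF sites between H19 and Igf2 and so fix where the control region lies among the bins. The search found 3 matches, all on the minus strand and intergenic, 2166, 2621 and 3891 bases upstream of the start of H19. Capitals mark the match, and each line runs 5′ to 3′ on the minus strand.
Site 1, chr7:149766206-149766235: agacgatgCCGCGTGGTGGCAGtacaatac
Site 2, chr7:149766661-149766690: ggatgctaCCGCGCGGTGGCAGcatactcc
Site 3, chr7:149767931-149767960: gggagttgCCGCGTGGTGGCAGcaaaatcg
All 3 matches fell in the bin of H19, and no other bin of the region held one. Over the autosomes 52 of 61816 bins held the repeat (0.0841%), and 2 bins, this one included, held as many as 3. A match is a run of letters and not a measured binding site. HindIII, the enzyme used, had a median of 9 sites per bin of the region (range 4 to 28) against 12 over the autosomal bins.

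The Igf2-H19 domain was taken as the 4 bins chr7:149760001-149920000. In it H19, a non-coding RNA gene of the maternal copy, lies at chr7:149761434-149764048, Igf2, a fetal growth factor, at chr7:149836673-149852721, and Ins2, which encodes insulin, at chr7:149864561-149885415, all on the minus strand. The Kcnq1 domain was taken as the 15 bins chr7:150120001-150720000. There Ascl2, a transcription factor of the placental trophoblast, lies at chr7:150152727-150155169 on the minus strand and Kcnq1, a potassium channel, at chr7:150293159-150612955 on the plus strand. Cdkn1c, the cell cycle inhibitor p57, lies at chr7:150644255-150646955 and Phlda2, which limits placental growth, at chr7:150687450-150688446, both on the minus strand. A gap of 5 bins, chr7:149920001-150120000, separates the domains and holds Th, the gene of tyrosine hydroxylase. The bins of Igf2 and Ins2 overlap, so contacts of these 2 genes are not independent of each other.

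Contacts were expressed as observed over expected, the corrected contact of a pair of bins divided by the mean of chromosome 7 at the same distance. A value of 1 is the level usual for that distance. In WT, contacts within the Igf2-H19 domain stood at 1.07 (95% counting interval 1.00 to 1.14, 1008 read pairs) and contacts within the Kcnq1 domain at 1.14 (1.10 to 1.18, 6297 read pairs). Contacts between the domains stood at 0.873 (0.809 to 0.942, 817 read pairs over 60 bin pairs). The contact between the domains was thus 0.769 times that within them, a log2 ratio of -0.38 (-0.50 to -0.26). The WT level between the domains was nevertheless an ordinary one, since 42.5% of 53796 placements of the same shape on the autosomes were as low.

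**Figure D1:**
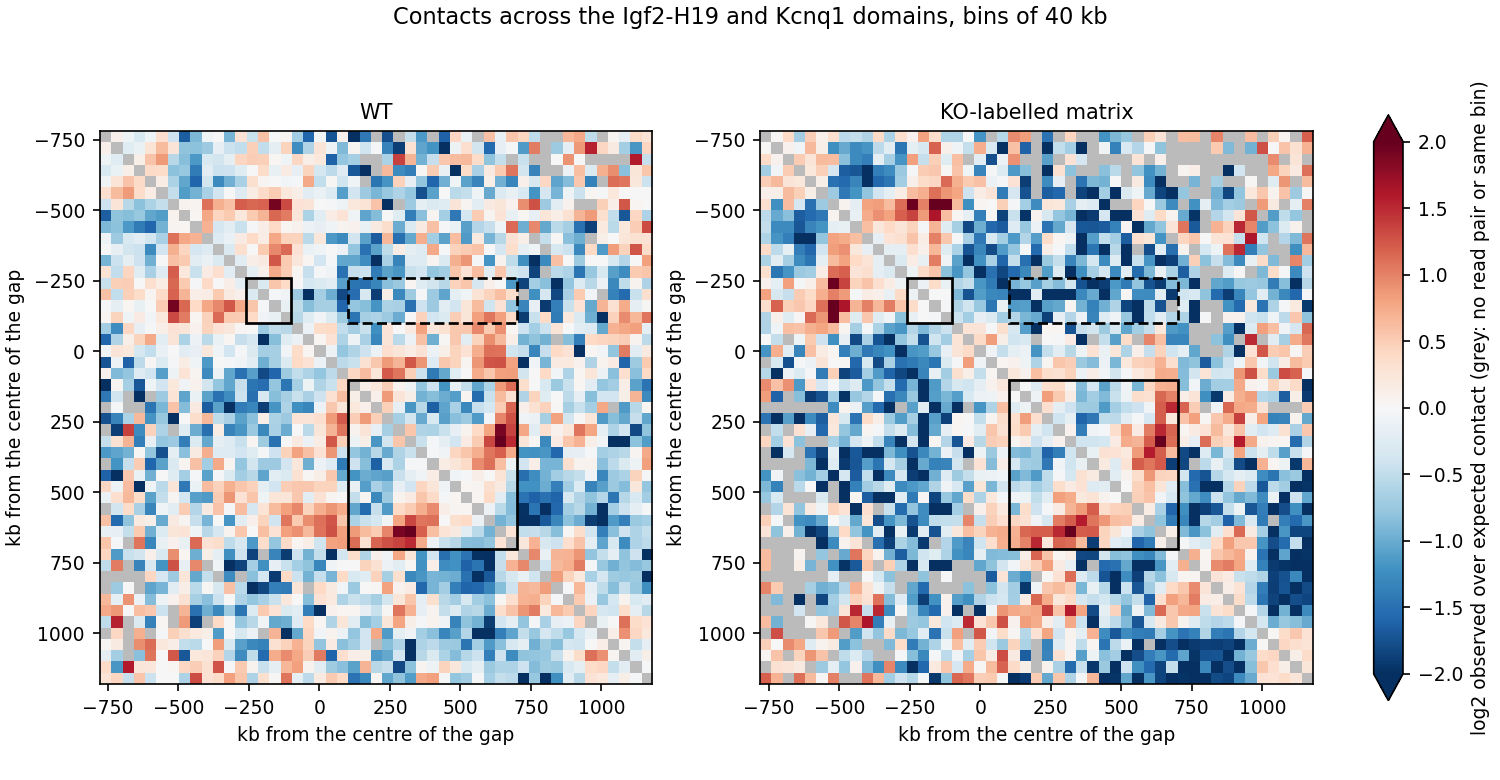
Contact maps of the region in WT (left) and in the KO-labelled matrix (right), with both axes in kb from the centre of the gap between the domains and colour showing log2 observed over expected contact in bins of 40 kb. Solid squares mark the Igf2-H19 domain (4 bins) and the Kcnq1 domain (15 bins), and the dashed rectangle marks the contacts between them, at 0.873 in WT and 0.484 in the KO-labelled matrix.

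In the KO-labelled matrix, contacts within both domains stayed near their WT level. Within the Igf2-H19 domain they stood at 1.02 (0.927 to 1.11, 518 read pairs), a log2 ratio to WT of -0.08 (-0.24 to 0.09). On the autosomes, 2.27% of placements of this shape were at least 1.5-fold lower in this matrix. Within the Kcnq1 domain contacts stood at 1.22 (1.17 to 1.28, 3798 read pairs), a log2 ratio of 0.10 (0.02 to 0.18). This interval lay above 0, while 70.1% of placements had a ratio as low, and 0.127% were at least 1.5-fold higher.

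Contacts between the domains were lower in the KO-labelled matrix, at 0.484 (0.426 to 0.550, 294 read pairs). The difference from WT was 1.80-fold, a log2 ratio of -0.85 (-1.06 to -0.64). With all bins of the region on either side of the middle of the gap taken as the domains, the log2 ratio was -0.47 (-0.57 to -0.36), which is under the 1.5-fold (0.58) used here. The ratio of -0.85, for the domains as defined by their genes, lay below that within either domain, by -0.77 (-1.04 to -0.51) on the log2 scale against the Igf2-H19 domain and by -0.95 (-1.18 to -0.72) against the Kcnq1 domain. Contact between the domains over contact within them was 0.400 in the KO-labelled matrix, and its log2 value was lower than in WT by 0.94 (interval of the difference -1.17 to -0.72). These contrasts of between and within were not set against placements. Placements of the between shape spread more, with a 5th to 95th percentile of -0.99 to 0.64, than those of the Kcnq1 domain, with -0.37 to 0.31. Read against the genome, the ratio of -0.85 between the domains was on the low side without standing apart. Of the placements of this shape on the autosomes, 15.1% were at least 1.5-fold lower in the KO-labelled matrix and 7.44% were as low as the pair of domains, with a 5th percentile of -0.99.

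**Figure D2:**
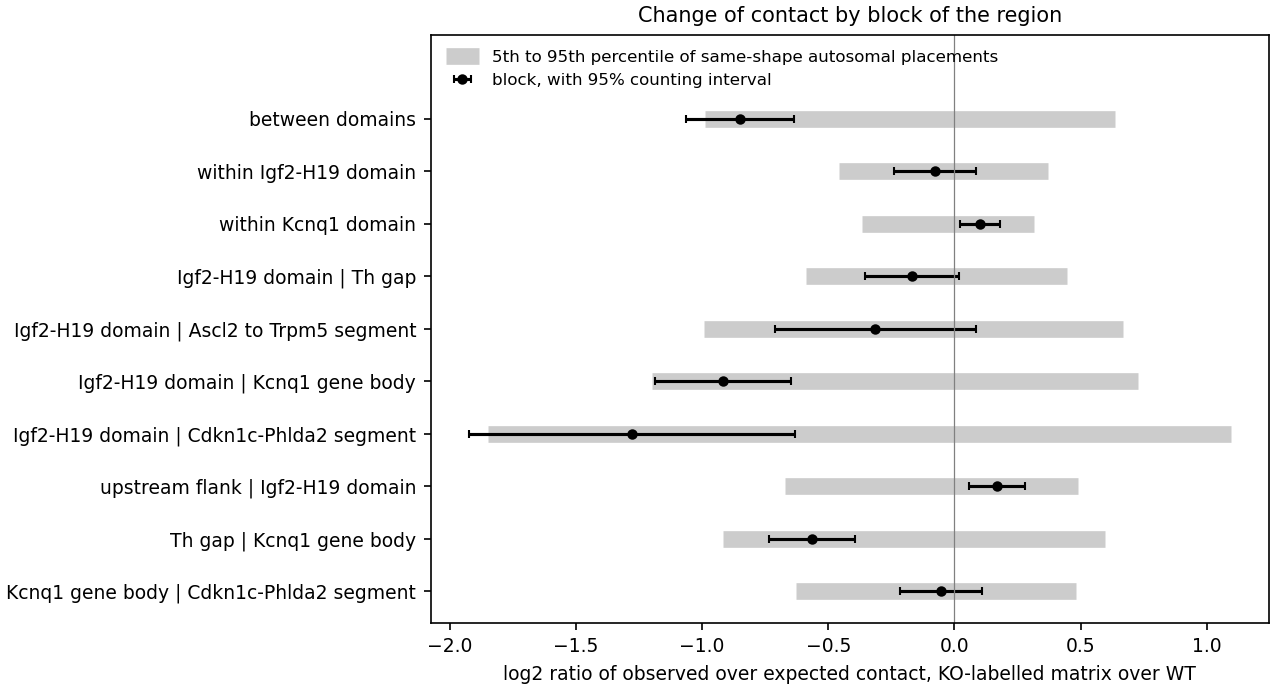
The log2 ratio of observed over expected contact, KO-labelled matrix over WT, for 10 blocks of the region (points, with 95% counting intervals), over the 5th to 95th percentile of placements of the same shape on the autosomes (grey bars). Contacts between the domains lie at -0.85 and those within them at -0.08 and 0.10, all inside their grey bars.

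By counting intervals alone, the lower contact was uneven along the Kcnq1 domain. It was seen at the Kcnq1 gene body and at Cdkn1c and Phlda2, and was not resolved at the near end of the domain, where Ascl2 lies. From the Igf2-H19 domain to the 9 bins of the Kcnq1 gene body, contact was 0.960 in WT (505 read pairs) and 0.508 in the KO-labelled matrix (163 read pairs). This was a log2 ratio of -0.92 (-1.19 to -0.65), and 19.7% of placements of this shape were at least 1.5-fold lower. To the 2 bins of Cdkn1c and Phlda2 it was 1.14 (104 read pairs) and 0.470 (28 read pairs), a log2 ratio of -1.28 (-1.93 to -0.63) for a shape of which 30.5% of placements were at least 1.5-fold lower.

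The 4 bins from Ascl2 to Trpm5, a cation channel gene, gave another picture. Their contact with the Igf2-H19 domain was already low in WT, at 0.542 (208 read pairs), where 9.50% of placements were as low, and was 0.436 (103 read pairs) in the KO-labelled matrix. The log2 ratio of -0.31 (-0.71 to 0.08) had an interval that held 0, and 14.8% of placements of this shape were at least 1.5-fold lower. The difference from WT was larger at the Kcnq1 gene body than at this near end by -0.60 (-1.08 to -0.12) on the log2 scale, and larger at Cdkn1c and Phlda2 by -0.97 (-1.72 to -0.21). Between Cdkn1c and Phlda2 and the Kcnq1 gene body the difference was not resolved, at -0.36 (-1.06 to 0.34). Against placements of its own shape, 28.7% had a ratio as low as the near end. The share was 9.52% for the Kcnq1 gene body and 11.7% for Cdkn1c and Phlda2. The steps between the blocks were not set against placements. Ratios from the flank upstream of H19 are given beside these, and the steps between them were not tested. From that flank the log2 ratio was -0.07 (-0.37 to 0.23) to the bins from Ascl2 to Trpm5. It was -0.71 (-0.95 to -0.48) to the Kcnq1 gene body and -1.05 (-1.55 to -0.56) to Cdkn1c and Phlda2. Of placements of their own shapes, 51.63%, 19.01% and 15.86% had a ratio as low, in this order. In WT, contact with the Igf2-H19 domain relative to distance was lowest at the end of the Kcnq1 domain nearest to Ins2.

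Contacts of the Igf2-H19 domain on its other side, with the 13 bins of the flank that holds Ctsd, Lsp1 and Tnnt3, were high in both matrices. They stood at 1.40 (1.33 to 1.46) in WT and 1.57 (1.48 to 1.66) in the KO-labelled matrix, levels that 92.4% and 93.1% of placements did not exceed. The domain was thus joined more to this flank than to the Kcnq1 domain, 1.60 times in WT and 3.24 times in the KO-labelled matrix. Contact with the Th gap was low in both, at 0.648 and 0.578. The gap in turn was joined to the Kcnq1 gene body at 1.32 in WT and 0.895 in the KO-labelled matrix, a log2 ratio of -0.56 (-0.73 to -0.39). This ratio was under 1.5-fold (0.58). Of placements of its shape, 13.8% had a ratio as low and 13.1% were at least 1.5-fold lower.

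Pairs of single genes draw on read pairs already counted in the blocks above, so they break those blocks down and give no separate support. Of the 12 pairs with 1 gene in each domain, 9 were lower in the KO-labelled matrix, 8 of them at least 1.5-fold and 6 with a counting interval below 0. Their median log2 ratio was -1.01. The count of 8 is read against 30.8% of placements of the same shapes that were at least 1.5-fold lower on the autosomes, and against the shared bins of Igf2 and Ins2. No share of placements was taken for the 9 lower pairs or for the 6 intervals below 0, so these counts are a description. Of the 9 pairs within a domain, 0 were at least 1.5-fold lower, where 14.2% of placements of the same shapes were. A count of 0 among 9 is too near this share to be read as a result about these genes. The count at least 1.5-fold higher was also 0, and no share of placements was taken for it.

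Cdkn1c had the highest contact with the Igf2-H19 genes in WT. Between Ins2 and Cdkn1c, WT had 49 read pairs and the KO-labelled matrix 11, which gave levels of 1.49 (1.13 to 1.97) and 0.578 (0.320 to 1.04) and a log2 ratio of -1.37 (-2.31 to -0.43). Igf2 and Cdkn1c were joined by 37 and 10 read pairs, with a log2 ratio of -1.24 (-2.26 to -0.23). H19 and Cdkn1c, 880 kb apart, were joined by 16 and 3 read pairs, with a log2 ratio of -1.93 (-4.35 to -0.12). All 3 pairs were thus lower, at counts that leave the size of the difference wide.

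Kcnq1, the longest of the genes, gave the firmest counts. With Ins2 it had 300 read pairs in WT and 100 in the KO-labelled matrix, with levels of 1.02 and 0.606 and a log2 ratio of -0.76 (-1.10 to -0.41). With Igf2 it had 199 and 68 read pairs (-0.83, -1.25 to -0.40), and with H19 125 and 39 (-1.19, -1.73 to -0.66). These 3 intervals overlap, so no order among the 3 genes can be read from them.

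Phlda2 had few read pairs with the other domain. The smallest ratio of all 21 pairs was that of Igf2 and Phlda2, -2.80, which rests on 10 read pairs in WT and 1 in the KO-labelled matrix and whose interval (-5.77 to 0.17) held 0. Of the 12 pairs between the domains, the 3 that were not lower were Phlda2 with H19 and Ascl2 with H19 and Ins2. H19 and Phlda2 had 3 read pairs in each matrix, with a ratio of 0.28 (-2.62 to 3.18). The largest ratio was that of H19 and Ascl2, 0.53 (-0.63 to 1.68), from 15 and 14 read pairs. Ins2 and Ascl2 had 49 and 30 read pairs, with a ratio of 0.23 (-0.42 to 0.89), and Igf2 and Ascl2 had 40 and 16, with a ratio of -0.51 (-1.36 to 0.34). The intervals of these 4 pairs held 0, and whether Ascl2 differs from the other genes of its domain was not tested pair by pair.

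**Figure D3:**
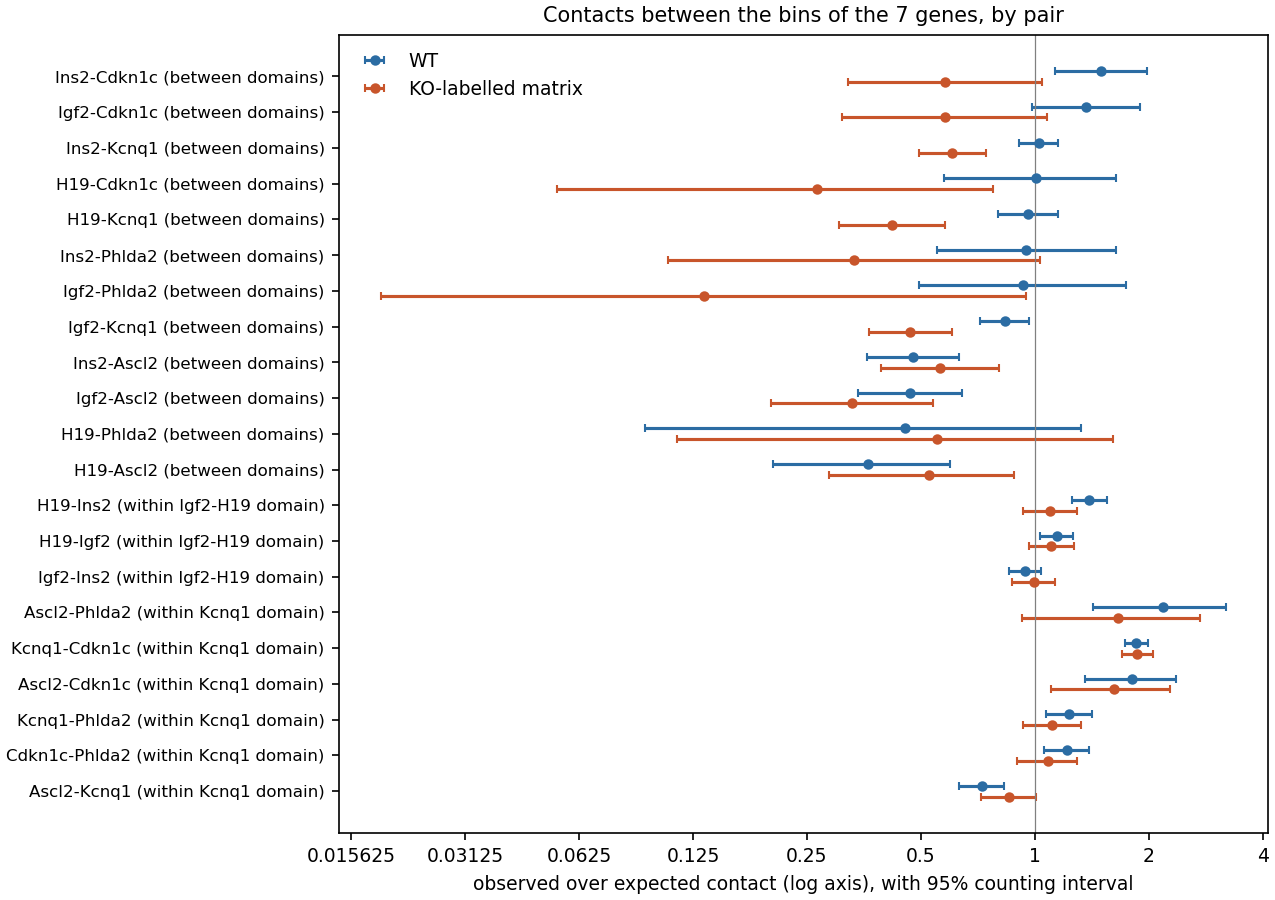
Observed over expected contact on a log axis for the 21 pairs of the 7 genes in WT (blue) and in the KO-labelled matrix (orange), with 95% counting intervals, grouped by whether both genes lie in 1 domain. Pairs of Kcnq1 or Cdkn1c with Igf2, H19 or Ins2 lie lower in the KO-labelled matrix, while Kcnq1-Cdkn1c lies at 1.85 and 1.87.

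Within the domains, Kcnq1 and Cdkn1c were on average joined well above the level of their distance, at 1.85 (1.73 to 1.99, 1030 read pairs) in WT and 1.87 (1.70 to 2.05, 584 read pairs) in the KO-labelled matrix. Along Kcnq1 the level was uneven. It ran from 4.72 and 4.58 at the bin chr7:150320001-150360000 to 0.52 and 0.57 at the bin of Kcnq1 nearest to Cdkn1c. Cdkn1c and Phlda2, in neighbouring bins, stood at 1.21 and 1.08 (212 and 124 read pairs). Ascl2 and Phlda2, 560 kb apart at opposite ends of the domain, stood at 2.18 and 1.66 (26 and 15 read pairs). Ascl2 and Cdkn1c, 520 kb apart, stood at 1.81 and 1.61 (54 and 32 read pairs), whereas Ascl2 and the Kcnq1 gene between them stood at 0.723 and 0.852. In the other domain, H19 and Igf2 stood at 1.14 and 1.11 (388 and 223 read pairs) and H19 and Ins2 at 1.39 and 1.10 (362 and 152 read pairs). The log2 ratio of H19 and Ins2, -0.35 (-0.62 to -0.07), was the only one of the 9 whose interval did not hold 0.

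The highest single contacts of the region were shared by the matrices in part. Among pairs of bins at least 80 kb apart with at least 20 read pairs, 4 of the highest 10 in WT were also among the highest 10 in the KO-labelled matrix. The minimum was met by 308 pairs in WT and 178 in the KO-labelled matrix. The highest 10 of the latter ended at 2.322. The WT pairs missing from them stood lower in that matrix, whether or not they met the minimum there. The bin of Cdkn1c and the bin chr7:150320001-150360000, in the 5′ part of Kcnq1, ranked first in WT at 4.72 (4.07 to 5.44, 189 read pairs) and second in the KO-labelled matrix at 4.58 (3.75 to 5.55, 105 read pairs). Of the autosomal bin pairs at this distance of 320 kb, 0.0256% and 0.105% were as high.

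The other contact joined Igf2 to the flank. The bin that holds the 3′ part of Ins2 and the 5′ part of Igf2, chr7:149840001-149880000, and the bin chr7:149480001-149520000, which holds the keratin-associated protein gene Krtap5-4, lie 360 kb apart. Their contact stood at 3.76 (3.07 to 4.55, 105 read pairs) in WT and 5.52 (4.37 to 6.88, 79 read pairs) in the KO-labelled matrix. H19 met the same flank bin at 2.22 (1.79 to 2.73, 90 read pairs) and 3.89 (3.14 to 4.77, 93 read pairs). These pairs were picked for their height and are given as a description. None of the highest 10 in WT joined the domains, though most bin pairs that join them fell short of the minimum of 20 read pairs. In the KO-labelled matrix none could be listed, since such bin pairs had at most 18 read pairs.

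Each gene's lean to either side was then taken over 480 kb, as the log2 ratio of observed over expected contact towards higher over lower coordinates. H19, Igf2 and Ins2 leaned to the lower side, away from the Kcnq1 domain, by -0.71, -1.43 and -1.29 in WT and by -1.27, -1.71 and -1.49 in the KO-labelled matrix. For H19 the intervals of the 2 matrices, -0.90 to -0.53 and -1.52 to -1.03, did not overlap. The lean was not set against placements, so this difference cannot be read as particular to H19. Ascl2 leaned to the higher side, into its own domain, by 0.39 (0.18 to 0.60) and 0.40 (0.14 to 0.66). At the far end Cdkn1c leaned back into the domain by -1.22 and -1.30, and Phlda2 by -0.62 and -0.50. Kcnq1, in the middle, stood at -0.17 (-0.28 to -0.06) and -0.05 (-0.20 to 0.10).

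The insulation score was the log2 of the mean contact across a bin, over squares of 480 kb, relative to the mean of chromosome 7, so a low score marks a site that few contacts cross. A boundary was placed where the mean score over the 320 kb before a bin stopped exceeding that over the 320 kb after it. Such a site lies at or near a dip of the score but need not be its lowest bin. The strength of a boundary grows with the depth of the dip. Both matrices had a dip between the domains. In WT the lowest score between them was -0.39, at chr7:149920001-149960000 next to Ins2, and in the KO-labelled matrix it was -0.78, at chr7:150000001-150040000 in the gap. The difference was -0.39. With the plain mean of each square, for which a counting interval can be given, the scores were -0.42 (-0.47 to -0.36) and -0.77 (-0.85 to -0.69), and their difference was -0.36 (-0.45 to -0.26).

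A boundary was called at both sites, 80 kb apart. Its strength was 0.65 in WT, the 95th of 119 boundaries on chromosome 7, and 1.31 in the KO-labelled matrix, the 74th of 112. It was a weak boundary of this chromosome in both matrices. The boundary thus ranked higher in the KO-labelled matrix, but boundaries elsewhere differed in the same way. Over 2169 WT boundaries of the autosomes the median difference of the score was -0.25, 28.8% were lower by at least 0.58 (1.5-fold), and 39.4% were lower by as much as the boundary between the domains. A boundary within 80 kb was found for 60.5% of them, and among these the median difference of strength was 0.68, against 0.67 between the domains.

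**Figure D4:**
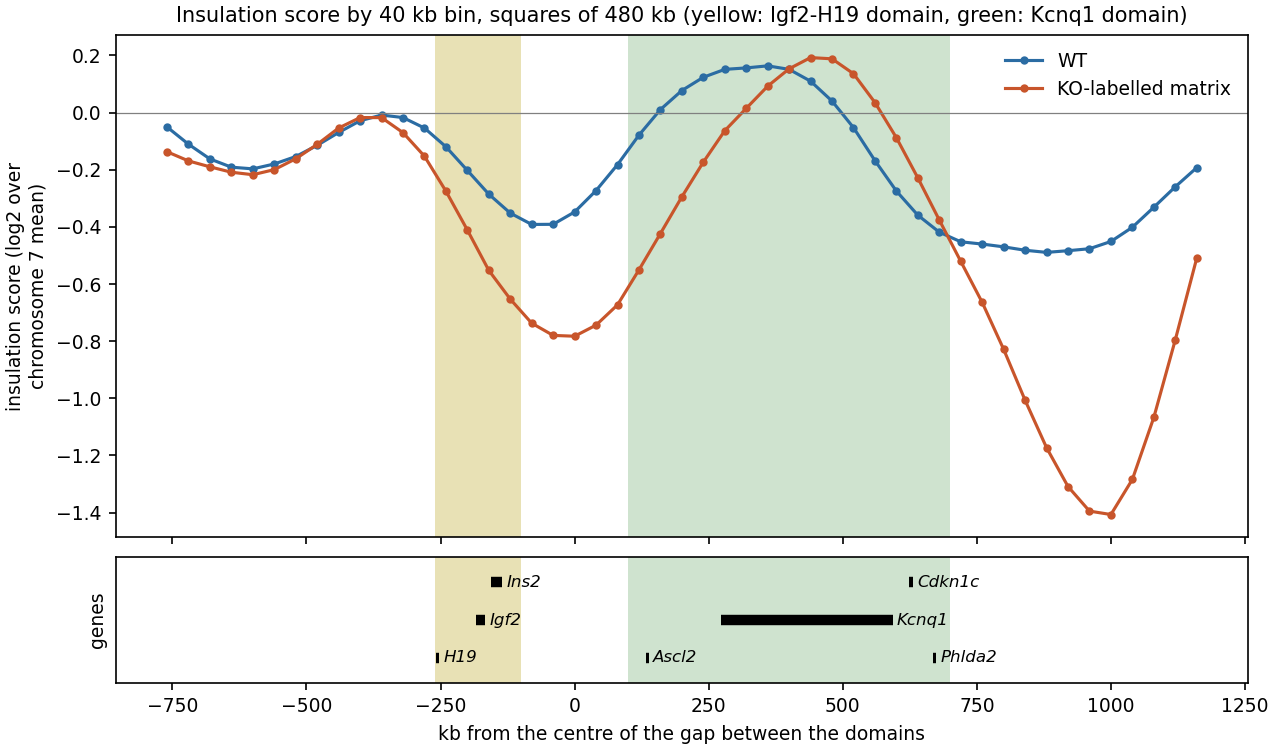
Insulation score of the 49 bins (log2 over the mean of chromosome 7) in WT (blue) and in the KO-labelled matrix (orange) against kb from the centre of the gap, with the Igf2-H19 domain in yellow, the Kcnq1 domain in green and the gene bodies below. The dip between the domains reaches -0.39 in WT and -0.78 in the KO-labelled matrix, and both profiles are near each other upstream of H19.

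Over the whole region, 38 of 49 bins had a lower score in the KO-labelled matrix, with differences from -0.96 to 0.20 and a median of -0.16. Over the autosomal bins 54.0% had a lower score in that matrix, the median difference was -0.04 and the 5th to 95th percentile ran from -1.15 to 0.55, so all bins of the region lay within this range. The bin of H19, which holds the CTCF repeats, scored -0.12 in WT and -0.27 in the KO-labelled matrix, so it was not the lowest point in either. The bin of Ascl2 scored -0.08 and -0.55. The highest scores of the region lay inside the Kcnq1 gene, 0.16 in WT and 0.19 in the KO-labelled matrix. The deepest dip lay beyond Phlda2, where a boundary was called at Osbpl5 in WT (strength 0.93, score -0.49) and 80 kb further, at Nadsyn1, in the KO-labelled matrix (strength 2.37, score -1.40). A further WT boundary, at chr7:149480001-149520000, had a strength of 0.30 and no boundary near it in the KO-labelled matrix.

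The share of read pairs that joined other chromosomes also differed between the matrices. For bins of the Igf2-H19 domain it was 18.2% in WT and 34.6% in the KO-labelled matrix, and for bins of the Kcnq1 domain 20.9% and 39.6%, against 16.0% and 34.9% over all bins of chromosome 7. By gene it ran from 17.2% (Ins2) to 24.2% (Ascl2) in WT and from 33.6% (H19) to 42.2% (Phlda2) in the KO-labelled matrix, so the ranges of the matrices did not overlap. Contacts within 2 Mb made up 60.7% and 47.3% for the Igf2-H19 domain and 56.2% and 43.3% for the Kcnq1 domain. The part of these shares, of depth and of culture in the contacts between the domains was not tested.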

How the data were processed

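The authors cut chromatin with HindIII, mapped the reads of each group's pooled libraries to mm9 and made matrices of 40 kb bins with HiC-Pro 2.7.8. Deposited per bin pair is a signal after iterative correction, which gives all kept bins of a matrix the same total. The correction fixes each bin's total, so values show where contacts go and not how many reads a bin had. Behind each value stands a read pair count, multiplied by 1 weight per bin. Weights were fitted, and all entries came out within 0.05 of a whole number, which gave the depth and the counting intervals. The bin tables' chromosome lengths matched the mm9 reference, and genes were placed by GENCODE for that build.

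Insulation was computed with an own implementation of the settings in the methods (square 480 kb, interquartile mean, delta span 320 kb, smoothing 160 kb), which can differ in detail from the authors' script. Domains were the bins spanned by their member genes. Intervals are 95% counting intervals, exact for single bin pairs and otherwise normal on the log scale with weights held fixed. No other error is in them, and PCR copies were not marked by molecular identifiers, so read pairs need not be independent molecules. Placements are the same arrangement of bins at every autosomal position where all bins were kept; neighbouring placements overlap and are no replicates. A ratio counted as past at 1.5-fold. The code was tested on simulated data. The text names all 7 genes, listed neighbours where a result needs them, and the pairs with the largest and smallest ratio; the highest bin pairs and the genes in them were chosen after their values were seen. The members, lists and comparisons were chosen with earlier results of these data known. Python 3.11.15, numpy 2.4.6, pandas 2.3.3, scipy 1.17.1 and matplotlib 3.10.9 were used.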

Additional observations from a re-analysis of the deposited data

How the results depend on the processing

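Of 38 alternative values, 32 were counted as near the value given, 5 as moved and 1 as reversed. Some of the 32 could not differ. All bins of the region were kept in both matrices, so contacts limited to bins kept in both were the same values. Contacts between the domains hold no bin pair under 80 kb, so leaving out shorter distances could not change them. Contacts between the domains (-0.85) had log2 ratios from -0.65 to -0.90 with autosomal expected values, ratios of sums or uncorrected read pairs. The ratio was -0.63 with no expected value and -0.47 with the whole region, parted at the middle of the gap, as domains, which is under the 1.5-fold used here. Between over within (-0.94) was -0.70 with ratios of sums and -0.47 with the whole region. Under the latter, contacts within the Kcnq1 side reversed, from 0.10 to -0.013 (-0.07 to 0.05), and this block's interval held 0 also with autosomal expected values or ratios of sums. Within the Igf2-H19 domain (-0.08) the ratio with uncorrected read pairs was -0.19 (-0.36 to -0.03), an interval that no longer held 0. With the whole region as domains the sign of this block turned, to 0.03 (-0.04 to 0.10), though it was counted as near. With distances from 80 kb it was -0.23 (-0.48 to 0.01). The difference of boundary strength (0.67) was 0.42 with a delta span of 160 kb. A square of 960 kb called no WT boundary between the domains, so no strength could be compared. The order of both boundaries turned with a square of 240 kb, so the 80 kb between them gives no direction. The causes were not tested. With uncorrected read pairs, 8 pairs of genes were again at least 1.5-fold lower.

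No paired analysis was possible because the libraries of each group were pooled in 1 matrix, and for the same reason leaving out a library was not an option. Depth limits single pairs of genes, several of which rest on 3 read pairs or fewer in the KO-labelled matrix. Bins of 40 kb do not separate the H19 control region from H19, or the 5′ part of Igf2 from Ins2.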
